A study of Mus musculus with 4 samples.

Results

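The 9 genes described here belong to the liver X receptor (LXR) pathway of cholesterol efflux, and were taken by symbol from the 17780 genes of the deposited lung table: the receptors Nr1h3 and Nr1h2, the efflux transporters Abca1 and Abcg1, the lipoprotein gene Apoe, and the LXR targets Mylip, Lpcat3, Srebf1 and Scd1. All 9 genes were in the table. The study asked whether dabigatran, an oral thrombin inhibitor, modifies the lung injury caused by amiodarone, an antiarrhythmic drug that accumulates in lysosomes. Poly(A) RNA of lung was sequenced on the DNBseq platform from 4 groups of mice labelled C57BL/6, which the methods give as male C57BL/6J mice aged 6 to 7 weeks. All groups were dosed orally on 5 days a week: the vehicle group received carboxymethylcellulose, the amiodarone group 300 mg per kg per day of amiodarone hydrochloride, the dabigatran group 60 mg per kg per day of dabigatran etexilate, and the amiodarone + dabigatran group both. The labels give 28 days of treatment and the methods give day 26. Each group holds 1 library, and the sources used here do not say whether it came from 1 mouse or a pool, so the groups could not be tested against the spread between animals and no p-values are printed.

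LXRα and LXRβ are nuclear receptors that sense oxysterols, the oxidised derivatives of cholesterol. As heterodimers with the retinoid X receptor (RXR) they bind response elements made of a repeated short motif, and they raise genes that move cholesterol out of the cell, limit its uptake and remodel membrane phospholipids. When cell cholesterol is low, the transcription factor SREBP2 acts in the opposite sense, raising cholesterol synthesis and uptake. In the lung the pathway is known chiefly from alveolar macrophages, which clear surfactant lipid, and from alveolar type 2 cells, which make it.

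Levels are given in FPKM, fragments scaled to transcript length and to sequencing depth. The unit was inferred from the values. Total estimated reads per library were between 17498486 and 18903401. Each ratio of FPKM is followed by a 95% interval from the reads of the 2 libraries, which covers counting error only and says nothing of the spread between animals. A difference is called beyond counting error where that interval lies wholly above or below 1. A gene is counted as past 1.5-fold by its difference in log2(FPKM + 1), among the 13183 genes that averaged at least 1 FPKM across the 4 libraries. All 9 genes passed this filter. The added 1 shrinks the differences of low genes, so a gene can pass 1.5-fold by its FPKM ratio and miss it on this scale.

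Amiodarone exceeded vehicle for all 9 genes, and amiodarone + dabigatran exceeded dabigatran for all 9, in each case beyond counting error. Scd1, Mylip, Abca1, Apoe and Abcg1 were at least 1.5-fold higher with amiodarone than with vehicle, which is 5 of 9 genes, whereas 4.13% of all genes passed this fold. None of the 9 was 1.5-fold lower, against 3.75% of all genes. With amiodarone + dabigatran against dabigatran, 4 of 9 genes were at least 1.5-fold higher (Scd1, Apoe, Abcg1 and Mylip), against 3.14% of all genes, and none was 1.5-fold lower, against 1.91%. These 2 comparisons share no library. The same 4 genes passed the fold in both of them, which 2.08% of all genes did, and the direction alone was upward in both for 26.5% of all genes. The median difference of the 9 genes in log2(FPKM + 1) was 0.65 with amiodarone against vehicle and 0.56 with amiodarone + dabigatran against dabigatran, and the medians over all genes were -0.04 and -0.01. In lung tissue, a difference in the number of cells of a type and a difference in RNA per cell cannot be told apart.

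**Figure D1:**
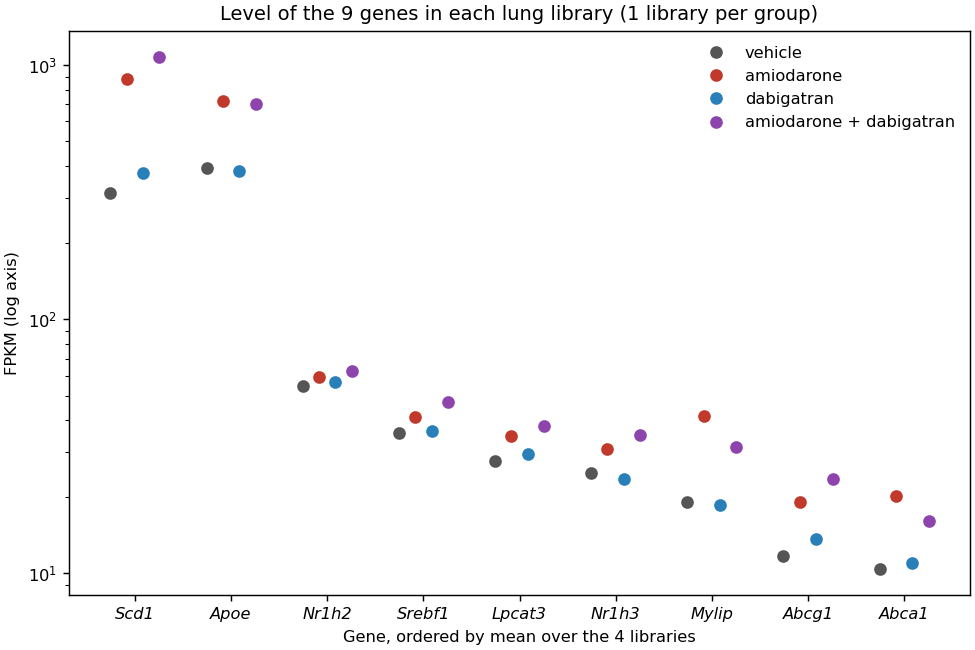
FPKM of the 9 genes (log axis) in each of the 4 lung libraries, 1 point per library and no error bars because each group holds 1 library. For every gene both libraries with amiodarone lie above both libraries without it, from Scd1 at 314 and 376 FPKM against 879.7 and 1075 FPKM to Nr1h2 at 54.4 and 56.6 FPKM against 59.3 and 62.5 FPKM.

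Of the 9 genes, Nr1h2 differed least in both comparisons with amiodarone. For amiodarone against vehicle, the ratio of Nr1h3 was above that of the target Srebf1. For amiodarone + dabigatran against dabigatran it was above those of Abca1, Srebf1 and Lpcat3. Nr1h3, which encodes LXRα, the form enriched in macrophages, liver and fat, lies on the minus strand at chr2:91184061-91202829 of GRCm38.p6. It had 24.9 FPKM with vehicle, 30.9 FPKM with amiodarone, 23.5 FPKM with dabigatran and 35.1 FPKM with amiodarone + dabigatran. The 2 libraries with amiodarone were high and the combination highest. The ratio was 1.24 (1.13 to 1.37) for amiodarone against vehicle and 1.49 (1.36 to 1.64) for amiodarone + dabigatran against dabigatran, just short of the fold of 1.5. Nr1h2, which encodes the widely expressed LXRβ, lies at chr7:44549616-44553968 on the minus strand. It had 54.4 FPKM with vehicle, 59.3 FPKM with amiodarone, 56.6 FPKM with dabigatran and 62.5 FPKM with amiodarone + dabigatran, the narrowest range among the 9 genes. Its ratios were 1.09 (1.02 to 1.16) and 1.10 (1.04 to 1.17) for the same comparisons. Nr1h2 stood above Nr1h3 in every library.

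The efflux transporters were both higher with amiodarone. Abca1, which loads cholesterol and phospholipid onto lipid-poor apolipoproteins, lies on the minus strand at chr4:53030789-53159988. It had 10.4 FPKM with vehicle, 20.1 FPKM with amiodarone, 11.01 FPKM with dabigatran and 16.04 FPKM with amiodarone + dabigatran. The amiodarone library was highest and the combination lay between it and the libraries without amiodarone. The ratio was 1.93 (1.83 to 2.04) for amiodarone against vehicle and 1.46 (1.38 to 1.54) for amiodarone + dabigatran against dabigatran, the second just under the fold of 1.5. Abcg1, which transfers cholesterol to mature high-density lipoprotein and is needed for lipid clearance by alveolar macrophages, lies on the plus strand at chr17:31057694-31117984. It had 11.8 FPKM with vehicle, 19.1 FPKM with amiodarone, 13.6 FPKM with dabigatran and 23.5 FPKM with amiodarone + dabigatran. Unlike Abca1, Abcg1 was highest in the combination library. The Abcg1 ratio was 1.62 (1.51 to 1.74) for amiodarone against vehicle and 1.73 (1.62 to 1.84) for amiodarone + dabigatran against dabigatran.

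Apoe, the secreted apolipoprotein that accepts effluxed cholesterol and is made in quantity by macrophages, lies on the minus strand at chr7:19696244-19701310. It had 393 FPKM with vehicle, 720.2 FPKM with amiodarone, 383 FPKM with dabigatran and 705 FPKM with amiodarone + dabigatran. The 4 libraries fell into a low pair without amiodarone and a high pair with it. The ratio was 1.83 (1.78 to 1.88) for amiodarone against vehicle and 1.84 (1.79 to 1.89) for amiodarone + dabigatran against dabigatran.

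Mylip encodes IDOL, an E3 ubiquitin ligase that limits cholesterol uptake, and lies on the plus strand at chr13:45389742-45411940. It had 19.1 FPKM with vehicle, 41.6 FPKM with amiodarone, 18.5 FPKM with dabigatran and 31.5 FPKM with amiodarone + dabigatran. As for Abca1, the amiodarone library was highest and the combination lay in between. The ratio was 2.18 (2.02 to 2.35) for amiodarone against vehicle and 1.70 (1.57 to 1.84) for amiodarone + dabigatran against dabigatran.

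Lpcat3 encodes the acyltransferase that puts polyunsaturated chains into membrane phospholipids, and lies on the plus strand at chr6:124663094-124704716. It had 27.6 FPKM with vehicle, 34.8 FPKM with amiodarone, 29.5 FPKM with dabigatran and 38.2 FPKM with amiodarone + dabigatran. Both libraries with amiodarone were above both without it, at ratios of 1.26 (1.16 to 1.37) and 1.29 (1.2 to 1.40), which are below the fold of 1.5. Lpcat3 shares 334 exon bases with Emg1 on the opposite strand, and whether counting used strand is not given in the sources used here. Emg1 itself had between 25.7 and 29.6 FPKM, with vehicle highest and dabigatran lowest.

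Srebf1 encodes SREBP-1, the transcription factor of fatty acid synthesis, whose SREBP-1c form is under LXR control, and lies on the minus strand at chr11:60199084-60224186. It had 35.7 FPKM with vehicle, 41.1 FPKM with amiodarone, 36.2 FPKM with dabigatran and 47.4 FPKM with amiodarone + dabigatran. The combination was highest, and the libraries without amiodarone were close to each other. The ratio was 1.15 (1.09 to 1.21) for amiodarone against vehicle and 1.31 (1.25 to 1.38) for amiodarone + dabigatran against dabigatran. The table gives 1 value per gene, so the SREBP-1a and SREBP-1c transcripts cannot be told apart. Srebf1 shares 109 exon bases with Rai1 on the opposite strand, which had between 7.70 and 9.97 FPKM.

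Scd1, the stearoyl-CoA desaturase that introduces the double bond of oleic and palmitoleic acid, lies on the minus strand at chr19:44394450-44407709. It had 314 FPKM with vehicle, 879.7 FPKM with amiodarone, 376 FPKM with dabigatran and 1075 FPKM with amiodarone + dabigatran. Both libraries with amiodarone were high, and within each pair the library with dabigatran was the higher one. The ratio was 2.80 (2.76 to 2.84) for amiodarone against vehicle and 2.86 (2.82 to 2.89) for amiodarone + dabigatran against dabigatran. By the difference in log2(FPKM + 1), Scd1 ranked 97 among 13183 genes in the first comparison and 53 in the second. The estimated reads of Scd1 and Lpcat3 were not whole numbers in every library, whereas those of 14694 of 17780 genes were, so some of their reads were divided between genes by estimation. The related desaturase gene Scd2 had 179 FPKM with vehicle, 245 FPKM with amiodarone, 190.4 FPKM with dabigatran and 248 FPKM with amiodarone + dabigatran, a smaller difference in the same direction. Scd3 had at most 0.10 FPKM, and Scd4 between 0.67 and 1.04 FPKM.

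**Figure D2:**
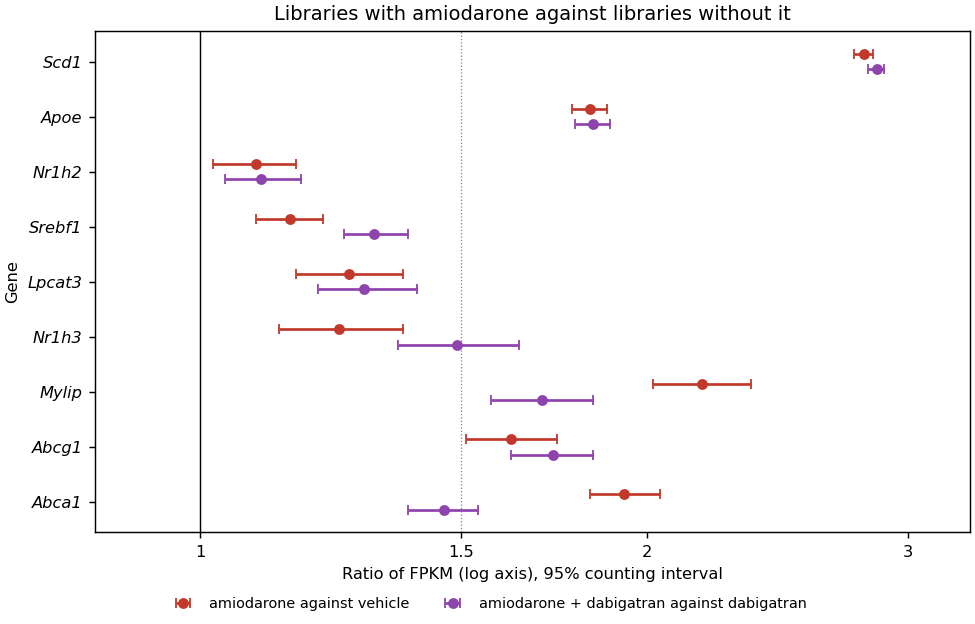
Ratio of FPKM (log axis) of amiodarone to vehicle and of amiodarone + dabigatran to dabigatran for the 9 genes, as points with 95% counting intervals from 1 library per group; the dotted line marks 1.5-fold. All 18 intervals lie above 1, from Nr1h2 at 1.09 and 1.10 to Scd1 at 2.80 and 2.86, and the points of Mylip and Abca1 are lower in the second comparison.

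Together the 9 genes held 0.257%, 0.594%, 0.288% and 0.686% of the estimated reads of the vehicle, amiodarone, dabigatran and amiodarone + dabigatran libraries. Scd1 made up most of this, with 0.151%, 0.422%, 0.180% and 0.516% of reads in the same order. The order of the levels differed between libraries. Without amiodarone Apoe stood above Scd1, by a ratio of 1.25 (1.22 to 1.28) with vehicle, while with dabigatran the ratio of 1.02 (0.992 to 1.04) was within counting error. With amiodarone Scd1 stood above Apoe by a ratio of 1.22 (1.2 to 1.24), and with amiodarone + dabigatran by 1.53 (1.5 to 1.55). Mylip was in position 7 with vehicle and dabigatran and also with the combination, and in position 4 with amiodarone, where it did not differ from Srebf1 beyond counting error, at a ratio of 1.01 (0.961 to 1.07). Abca1 had the lowest level in 3 libraries, below Abcg1. With amiodarone Abca1 was above Abcg1 by a ratio of 1.05 (0.999 to 1.11), which is within counting error.

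Dabigatran against vehicle gave small differences. None of the 9 genes was at least 1.5-fold higher or lower, against 0.402% of all genes higher and 0.379% lower. Scd1, at a ratio of 1.2 (1.18 to 1.22), and Abcg1, at a ratio of 1.16 (1.07 to 1.25), were the 2 genes higher beyond counting error. The other 7 ratios lay between 0.944 for Nr1h3 and 1.07 for Lpcat3, within counting error, which bounds these differences between the libraries and not between the treatments. The median difference in log2(FPKM + 1) was 0.06 for the 9 genes and 0.00 for all genes.

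Amiodarone + dabigatran against amiodarone divided the 9 genes. None passed 1.5-fold in either direction, against 0.971% of all genes higher and 1.12% lower. Mylip, at a ratio of 0.756 (0.710 to 0.805), and Abca1, at a ratio of 0.798 (0.761 to 0.837), were lower in the combination library beyond counting error. Another 5 genes were higher in it beyond counting error: Abcg1 at 1.23 (1.16 to 1.31), Scd1 at 1.22 (1.21 to 1.23), Srebf1 at 1.15 (1.10 to 1.21), Nr1h3 at 1.14 (1.04 to 1.24) and Lpcat3 at 1.10 (1.02 to 1.18). Apoe, at 0.979 (0.958 to 1.0), and Nr1h2, at 1.05 (0.994 to 1.12), lay within counting error. The transporters therefore stood on opposite sides of 1 in this comparison. Set against vehicle, with which the comparisons above share libraries, the combination library had ratios from 1.15 for Nr1h2 to 3.42 for Scd1, with 2.0 for Abcg1, 1.79 for Apoe, 1.65 for Mylip and 1.54 for Abca1.

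**Figure D3:**
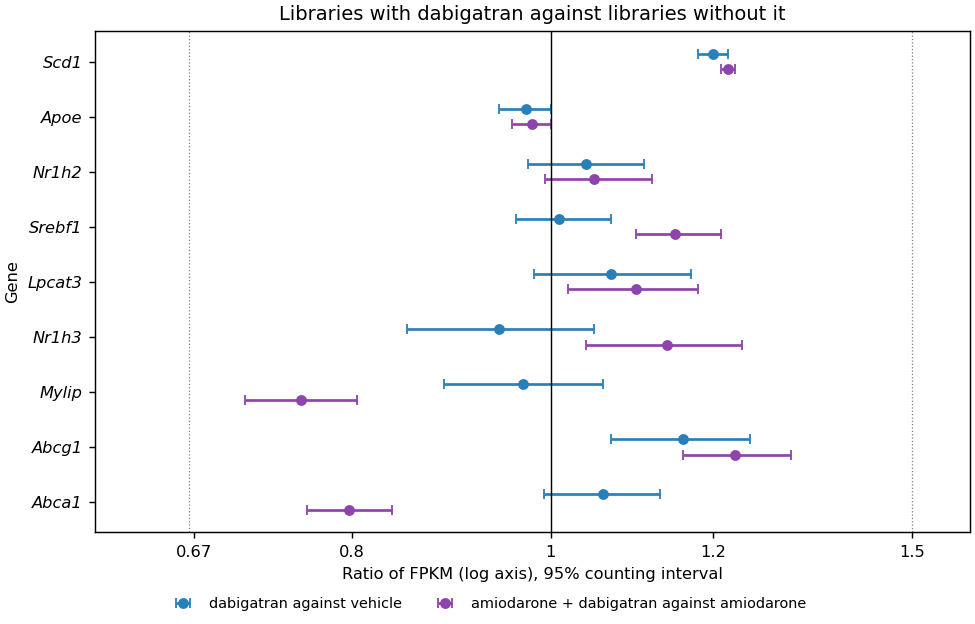
Ratio of FPKM (log axis) of dabigatran to vehicle and of amiodarone + dabigatran to amiodarone for the 9 genes, as points with 95% counting intervals from 1 library per group; dotted lines mark 1.5-fold in either direction. Scd1 and Abcg1 lie above 1 in both, whereas Mylip and Abca1 lie at 0.756 and 0.798 in the second comparison and near 1 in the first.

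The promoters of Abca1 and Mylip are printed here because these 2 genes were lower with the combination than with amiodarone while the other targets past 1.5-fold with amiodarone were higher or within counting error. RefSeq windows on GRCm38.p6, from 250 bases before to 50 bases after a transcript start, were found for 7 of the 9 genes, in 12 windows. The windows are chr4:53159846-53160145 on the minus strand for Abca1 and chr13:45389492-45389791 on the plus strand for Mylip, each read 5′ to 3′ along the gene. Capitals mark in Abca1 the E-box CACGTG and a stretch of 16 bases described after the sequences, and in Mylip ATTGG, the CCAAT box on the opposite strand.
Abca1: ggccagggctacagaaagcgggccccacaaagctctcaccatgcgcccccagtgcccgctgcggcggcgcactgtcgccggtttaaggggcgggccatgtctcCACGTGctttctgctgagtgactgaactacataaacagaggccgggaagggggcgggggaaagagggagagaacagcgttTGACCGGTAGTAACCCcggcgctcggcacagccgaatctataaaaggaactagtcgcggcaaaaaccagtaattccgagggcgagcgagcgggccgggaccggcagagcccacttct
Mylip: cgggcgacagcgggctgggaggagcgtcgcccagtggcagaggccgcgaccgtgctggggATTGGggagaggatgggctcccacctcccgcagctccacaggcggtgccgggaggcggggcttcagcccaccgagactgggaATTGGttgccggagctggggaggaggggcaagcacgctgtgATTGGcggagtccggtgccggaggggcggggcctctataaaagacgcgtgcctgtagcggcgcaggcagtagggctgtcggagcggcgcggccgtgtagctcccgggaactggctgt
In Abca1 the E-box lay from 147 to 142 bases before the start, and in Mylip the 3 CCAAT boxes began 190, 108 and 67 bases before it. Among all 32851 windows, 7.15% held the E-box and 37.4% held a CCAAT box on either strand. AGGTCA, the hexamer bound by one partner of such a dimer, was in none of the 12 windows, as against 16.3% of all windows, and neither was its direct repeat with a spacer of 4 bases (DR4, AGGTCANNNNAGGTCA), which was in 0.0152% of all windows. Allowing up to 2 of the 12 fixed bases of the repeat to differ gave a match in 3.02% of all windows and in none of these 12. With up to 3 of 12 bases differing, a limit set after seeing the windows, there was a match in 21.9% of all windows and in 2 of these 12, both with 3 bases different and both reading along the opposite strand. They lay from 67 to 52 bases before the start in Abca1, which is the capital stretch above, and from 182 to 167 bases before the start in the Srebf1 window chr11:60210422-60210721, on the minus strand. The 2 stretches are shown here along the gene, in capitals throughout.
Abca1 stretch: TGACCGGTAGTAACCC
Srebf1 stretch: TGACCGCCAGTAACCC
Neither overlaps another motif searched. Sequence outside the windows was not searched. A count of differing bases cannot tell whether the receptors bind a stretch, so these counts do not show that a promoter lacks or holds an LXR element. Lpcat3 had 4 CCAAT boxes in its window, and 2 of the Srebf1 windows had 1 each.

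Most other LXR targets were also higher with amiodarone. Of 16 further targets listed, 14 were in the table and 9 had a mean of at least 1 FPKM. Of these 9, 8 were higher by any amount in each comparison with amiodarone, where 58.6% and 52.4% of all genes were lower. The lower gene was Mlxipl for amiodarone against vehicle. For amiodarone + dabigatran against dabigatran it was Arl4c, named after its values were seen, at a ratio of 0.938 (0.870 to 1.01). Of the higher genes, Apoc1 was within counting error for amiodarone against vehicle, at 1.21 (0.990 to 1.47). Mlxipl was within it for amiodarone + dabigatran against dabigatran, at 1.09 (0.815 to 1.46). The fold of 1.5 was reached upward by 3 for amiodarone against vehicle and by 3 for amiodarone + dabigatran against dabigatran, and by none downward. Among all genes, 4.13% and 3.14% reached it upward, and 3.75% and 1.91% downward. The median differences of the 9 targets in log2(FPKM + 1) were 0.32 and 0.36. Apoc2, an apolipoprotein that activates lipoprotein lipase, had 2.10, 7.83, 1.75 and 6.38 FPKM in the vehicle, amiodarone, dabigatran and amiodarone + dabigatran libraries, or 20, 89, 19 and 81 reads. Lpl, the lipoprotein lipase gene, had 63.8, 138, 65.0 and 99.2 FPKM in the same order, with the combination between amiodarone and the libraries without it. Mertk, a receptor for the engulfment of dead cells, had 10.1, 17.4, 12.4 and 16.2 FPKM, and was past 1.5-fold in the first comparison but not in the second, where it was at a ratio of 1.31 (1.2 to 1.42). Pltp, the phospholipid transfer protein gene, had 388, 485, 391 and 449 FPKM, below the fold in both. Mlxipl, which encodes the carbohydrate-sensing factor ChREBP, was lowest with amiodarone, at 1.33 FPKM against 2.22 FPKM with vehicle, a ratio of 0.599 (0.447 to 0.8) that passes 1.5-fold without the added 1. Apoc1, the third target past the fold in the second comparison and named after its values were seen, had 27.7, 33.4, 19.6 and 32.1 FPKM.

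Of 13 genes of RXR and coregulators, the partners of the receptors, none was past 1.5-fold in log2(FPKM + 1) with amiodarone against vehicle, and 1 was lower with amiodarone + dabigatran against dabigatran, with medians of 0.03 and 0.00. That gene was Rxrg, at 1.91 FPKM with vehicle, 0.97 FPKM with amiodarone, 1.63 FPKM with dabigatran and 0.59 FPKM with the combination. Among all genes, 4.13% were 1.5-fold higher and 3.75% lower in the first comparison, and 3.14% and 1.91% in the second. By its FPKM ratio Rxrg was lower in both comparisons, at 0.508 (0.316 to 0.801) and 0.362 (0.203 to 0.622), and it missed the fold in the first only through the added 1. Rxra, the main RXR of most tissues, had between 29.1 and 31.9 FPKM. On the ligand side, 6 of 7 genes of oxysterol synthesis and clearance had a mean of at least 1 FPKM. Against 2.08% of all genes, 1 of these 6 was past 1.5-fold, upward, in both comparisons with amiodarone. It was Ch25h, which makes 25-hydroxycholesterol and is also induced by interferon in macrophages. Ch25h had 5.28 FPKM with vehicle, 12.8 FPKM with amiodarone, 3.48 FPKM with dabigatran and 11.1 FPKM with amiodarone + dabigatran, with ratios of 2.43 (1.96 to 3.03) and 3.20 (2.48 to 4.15). The other 5 stayed under the fold in both, and the median of the 6 was -0.02 and 0.19.

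In the list for cholesterol uptake, trafficking and storage, 2 of 16 genes tested reached 1.5-fold upward with amiodarone against vehicle, and the same 2 with amiodarone + dabigatran against dabigatran. Among all genes, 4.13% and 3.14% did so. Msr1, a macrophage scavenger receptor, had 0.74, 2.94, 1.08 and 2.84 FPKM in the vehicle, amiodarone, dabigatran and amiodarone + dabigatran libraries. Npc2, the carrier that hands cholesterol out of the lysosome, had 254, 427, 235.2 and 374 FPKM. Its membrane partner Npc1 had 22.7, 29.9, 23.9 and 29.8 FPKM, and Lipa, the lysosomal lipase, 24.9, 35.8, 27.7 and 37.3 FPKM, so both were higher in the 2 amiodarone libraries without reaching the fold in either comparison. None of the 16 was 1.5-fold lower with amiodarone against vehicle, and 1 was with amiodarone + dabigatran against dabigatran. Among all genes, 3.75% and 1.91% were. The lower gene was Lcat, named after its values were seen, at 0.65 FPKM against 1.6 FPKM, or 16 reads against 37. The list medians were 0.09 and 0.05.

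Of 12 lipogenic genes tested among SREBP-1c targets, none was 1.5-fold higher in either comparison with amiodarone, against 4.13% and 3.14% of all genes. By any amount, 3 were higher and 9 lower with amiodarone against vehicle, where 58.6% of all genes were lower, and 5 were higher and 7 lower with amiodarone + dabigatran against dabigatran, where 52.4% of all genes were lower. The list medians were -0.14 and -0.07. Thrsp, a lipogenic gene of fat and liver, was 1.5-fold lower with amiodarone against vehicle, at 3.52 FPKM against 6.12 FPKM. Of all genes, 3.75% were 1.5-fold lower in this comparison. Elovl5, an elongase of polyunsaturated fatty acids, had the highest difference of the 12 in that comparison, at 88.2, 123, 97.6 and 104 FPKM in the same order of libraries. Acaca, the acetyl-CoA carboxylase gene, had 9.70, 12.3, 10.9 and 14.3 FPKM. Me1, Fads1 and Gpam were lower with amiodarone against vehicle, at ratios of 0.816 (0.768 to 0.867), 0.828 (0.787 to 0.873) and 0.836 (0.787 to 0.887). With amiodarone + dabigatran against dabigatran they were also lower beyond counting error, at 0.909, 0.870 and 0.859. Fasn, the fatty acid synthase gene, named after its values were seen, had 53.7, 61.6, 52.8 and 77.4 FPKM, with the combination highest. Its ratios were 1.15 (1.12 to 1.18) and 1.47 (1.43 to 1.51), the second just short of the fold.

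SREBP2 targets lay on the other side of 0 from the LXR genes. Of 13 tested, 12 were lower by any amount in each of the 2 comparisons with amiodarone, against 58.6% and 52.4% of all genes. The medians were -0.37 and -0.33. At the fold of 1.5, 1 was lower with amiodarone against vehicle and 3 with amiodarone + dabigatran against dabigatran, and none was higher. Among all genes, 3.75% and 1.91% were 1.5-fold lower, and 4.13% and 3.14% higher. Hmgcs1, which makes the precursor of the mevalonate pathway, had 35.4, 22.8, 31.1 and 20.3 FPKM. Insig1, which retains the SREBP complex in the endoplasmic reticulum, had 27.2, 18.8, 30.6 and 18.9 FPKM, and Idi1, an isomerase of the same pathway as Hmgcs1, had 9.58, 6.27, 14.6 and 8.71 FPKM. In all 3 genes both libraries with amiodarone were below both libraries without it. The gene on the other side was Fdps, named after its values were seen, at 41.3, 49.2, 46.6 and 52.2 FPKM.

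**Figure D4:**
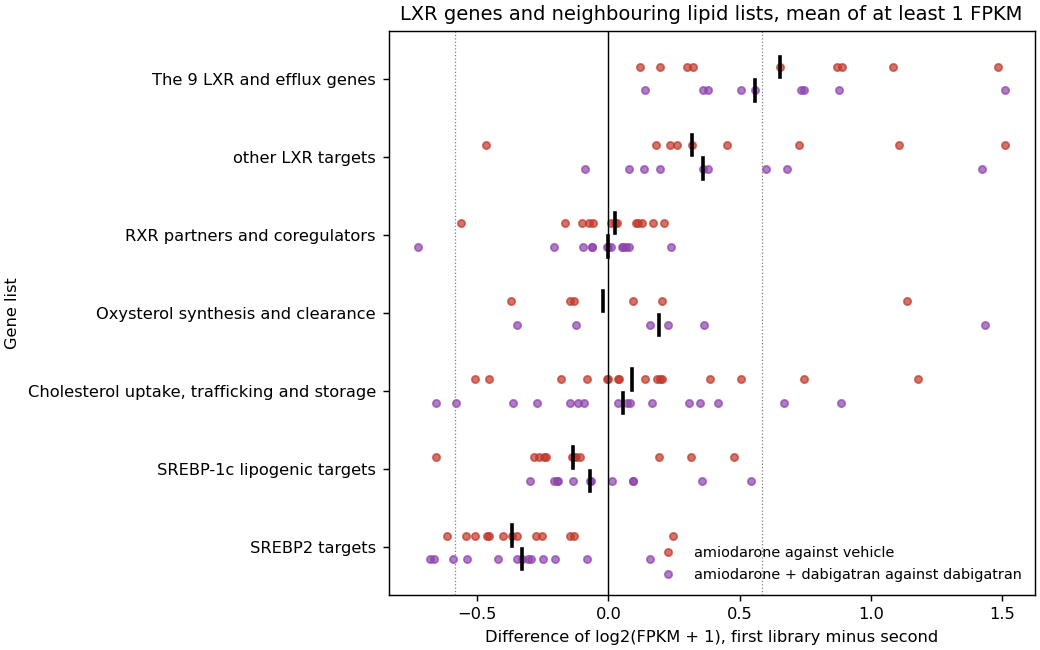
Difference in log2(FPKM + 1) of each gene that averaged at least 1 FPKM, for amiodarone against vehicle and amiodarone + dabigatran against dabigatran (1 library per group), with the list median as a black bar and dotted lines at 1.5-fold. The 9 LXR and efflux genes have medians of 0.65 and 0.56, the other LXR targets 0.32 and 0.36, and the SREBP2 targets -0.37 and -0.33.

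Markers of several cell types differed between the same libraries. With amiodarone against vehicle, 4.13% of all genes were at least 1.5-fold higher and 3.75% lower. With amiodarone + dabigatran against dabigatran these shares were 3.14% and 1.91%. Among 10 macrophage markers, 7 were at least 1.5-fold higher with amiodarone than with vehicle and 7 with amiodarone + dabigatran than with dabigatran, and 1, Ear2, was lower in the first comparison. Their summed level was 3640.0, 5851, 3960 and 5820 FPKM in the vehicle, amiodarone, dabigatran and amiodarone + dabigatran libraries, in which Lyz2, also expressed by type 2 cells, was the largest part. Cd68 had 28.6, 77.2, 25.8 and 89.2 FPKM, and Itgax, which marks alveolar macrophages, 9.95, 25.7, 9.22 and 23.5 FPKM, while Csf1r had 38.7, 40.7, 40.9 and 44.9 FPKM. Neutrophil markers had summed levels of 91.2, 596, 68.1 and 431 FPKM, with 6 of 6 tested past 1.5-fold upward in both comparisons. The 7 alveolar type 2 markers, which include Sftpc at 20077, 19587, 19876 and 20385 FPKM, summed to between 25113 and 27052 FPKM, with none past 1.5-fold. The type 1, endothelial and T lymphocyte lists had no marker past 1.5-fold with amiodarone against vehicle. In that comparison markers were 1.5-fold lower in the club cell (3 of 3), fibroblast (1 of 5), adipocyte (4 of 4), cardiac muscle (3 of 5) and B lymphocyte (4 of 4) lists, with none higher. With amiodarone + dabigatran against dabigatran the lower markers were 0 of 3, 2 of 5, 3 of 4, 2 of 5 and 1 of 4 of these lists and 1 of 5 endothelial markers, again with none higher. None of the markers of the 11 lists was at 0 in any library. The part of these differences in the levels of the 9 genes was not tested.

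**Figure D5:**
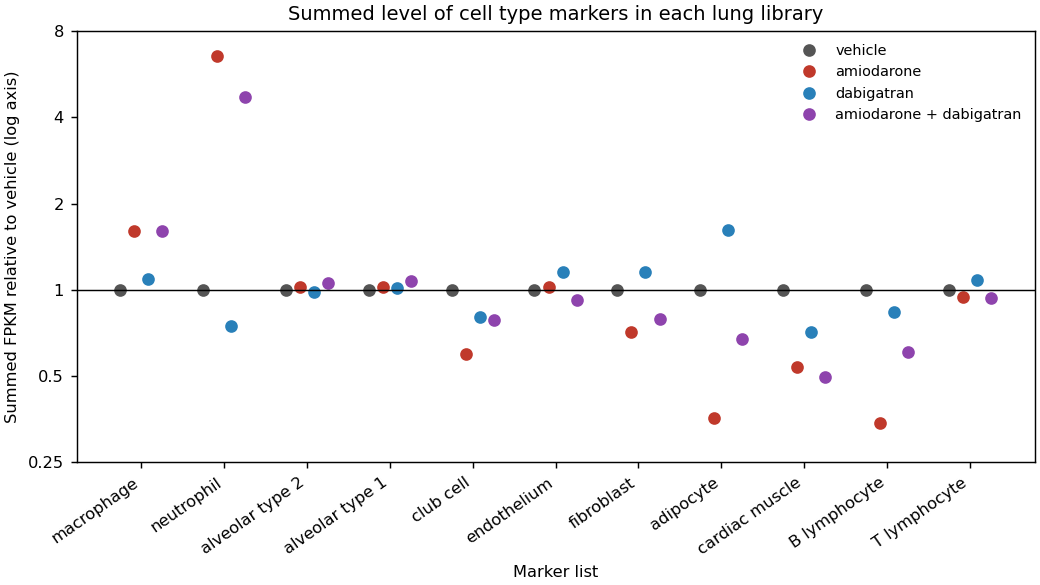
Summed FPKM of each cell type marker list relative to the vehicle library (log axis), 1 point per library and no error bars. Macrophage and neutrophil markers are higher in both libraries with amiodarone, where the neutrophil sums are 596 and 431 FPKM against 91.2 and 68.1 FPKM, and alveolar type 2 markers stay between 25113 and 27052 FPKM.

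The genes whose profile was most like that of each strongly differing gene were taken over the 6953 genes that averaged at least 10 FPKM, by Euclidean distance over the 3 differences from vehicle in log2(FPKM + 1). With 3 differences that share the vehicle library, likeness is a description of these libraries. For Scd1 the nearest genes were Ms4a8a, Plet1 and Mcemp1, at distances of 0.32, 0.33 and 0.41, and none of the 3 reached the level of Scd1, with at most 81.4 FPKM for Plet1. For Apoe they were Plac8, Msrb1 and Ppp1r2, at 0.05, 0.12 and 0.14. Plac8 had 38.6, 70.1, 37.1 and 68.1 FPKM, with the same low and high pairs of libraries as Apoe. For Mylip they were AA986860, Bcl2l1 and Lpl, at 0.05, 0.06 and 0.10, of which Lpl is itself an LXR target listed above. For Abca1 they were Serinc3, Serpina3n and Ackr2, at 0.07, 0.07 and 0.08, all with the combination library between amiodarone and vehicle. For Abcg1 they were Ms4a6b, Plek and Cd302, at 0.17, 0.21 and 0.22, all highest in the combination library.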

How the data were processed

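Lung RNA was measured in 4 libraries, 1 per treatment group, and each was assigned to its group by its label. The authors mapped the reads with HISAT 2.0.4 (to GRCm38.p6) and Bowtie2 2.2.5 (to reference transcripts), and estimated expression by RSEM 1.2.8. The deposited table holds, per gene and library, an estimated count of reads and a normalized value, and the deposited values were read as FPKM, since the sources do not name the unit. A further 8 columns, which average pairs of libraries, were left out. Estimated counts were rounded to whole numbers for exact Clopper-Pearson intervals at 95%, which cover counting error only. Levels per gene were compared as ratios of FPKM, and lists as differences in log2(FPKM + 1), which understate the change of low genes, with a fold of 1.5 and a mean of at least 1 FPKM. The total estimated reads of 17498486 to 18903401 set the precision, and a count of 0 allows up to 3 reads. Gene coordinates and promoter windows came from RefSeq (GRCm38.p6), and overlaps between exons from GENCODE.

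The 9 genes, the other gene lists and the marker lists were chosen with earlier results of these data known. Named genes are all 9, at most 6 per list by the size of the difference between amiodarone and vehicle, and the 3 nearest profiles; exceptions are stated, and 1 gene of the lists is not reported here. Alternatives were a fold of 2, a pseudocount of 0.1, no filter or one of 5 FPKM, FPKM rescaled by the median ratio over genes, and estimated reads scaled to the library total; the counting interval as a call and the repeat with up to 2 or 3 differing bases were added after seeing the data. The procedure was run on simulated counts with known folds that held counting error only, so that check says nothing of the spread between animals. Python 3.11.15, numpy 2.4.6, pandas 2.3.3, scipy 1.17.1 and matplotlib 3.10.9 were used.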

Additional observations from a re-analysis of the deposited data

Results flagged for a closer look

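For 2 of the 9 genes the difference with dabigatran had opposite signs without and with amiodarone. Nr1h3 differed by -0.08 in log2(FPKM + 1) for dabigatran against vehicle and by 0.18 for amiodarone + dabigatran against amiodarone, 0.26 apart. Abca1 differed by 0.08 and -0.31 in the same comparisons, 0.38 lower with amiodarone (-0.38). Each value rests on 1 library per group and the contrast of the differences was not tested. In both genes the difference without amiodarone was within counting error, so its sign is not settled. Mylip kept its sign, at -0.04 and -0.39 in the same comparisons, and these values lie further apart than those of Nr1h3.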

How the results depend on the processing

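With a fold of 2 in place of 1.5, 2 of the 9 genes were higher with amiodarone against vehicle (Scd1 and Mylip) and 1 with amiodarone + dabigatran against dabigatran (Scd1). Counting every difference beyond the counting interval, a choice made after seeing the data, gave 9 higher genes in each of these comparisons, 2 higher for dabigatran against vehicle, and 5 higher and 2 lower for amiodarone + dabigatran against amiodarone. With a pseudocount of 0.1, with FPKM rescaled by the median ratio and with estimated reads scaled to the library total, the counts stayed within 1.5 times and the medians of the 9 genes kept their sign. Of 108 single values 104 moved by less than counting error and none changed sign. The other 4, all under the rescaling, were Scd1 at 1.53 and Apoe at 0.92 for amiodarone against vehicle, and Scd1 at 0.25 and Apoe at -0.07 for amiodarone + dabigatran against amiodarone. Among genes averaging at least 5 FPKM the background held 296 lower genes in place of 495 for amiodarone against vehicle, 275 higher and 163 lower in place of 414 and 252 for amiodarone + dabigatran against dabigatran, 26 higher and 22 lower in place of 53 and 50 for dabigatran against vehicle (79 lower with no filter), and 58 higher and 97 lower in place of 128 and 148 for amiodarone + dabigatran against amiodarone. Of the 9684 genes left by that filter these counts are 3.06%, 2.84% and 1.68%, 0.268% and 0.227%, and 0.599% and 1.0%, so the shares were lower as well, and the cause was not tested. No paired analysis was possible because each group holds 1 library, and for the same reason no library could be left out of a group. Spread between animals was not measured, so no difference here can be set against it.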

Other observations

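Cd5l, an LXR target of macrophages that fell below the mean of 1 FPKM, had 3, 8, 16 and 76 reads in the vehicle, amiodarone, dabigatran and amiodarone + dabigatran libraries, or 0.09, 0.22, 0.45 and 2.03 FPKM. The ratio was 4.51 (2.61 to 8.29) for amiodarone + dabigatran against dabigatran and 2.44 (0.587 to 14.3) for amiodarone against vehicle, the second within counting error. The macrophage marker Marco had its highest level in the same library, with 1.66, 4.39, 4.41 and 12.2 FPKM.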
